A study of Mus musculus with 31 samples.

Results

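The transcriptome of the wild-type yolk sac was described from RNA sequencing of 6 Etv2+/+ libraries of mouse embryos at embryonic day (E) 8.5, which are 6 of the 31 libraries of the series. The libraries were chosen by their genotype label alone, and no genotype was compared with another. The embryos were of mixed strain. They came from matings among mice heterozygous for an Etv2 null allele (Δ) and mice heterozygous for a deletion of an Etv2 enhancer (enhΔ), so that these 6 are the littermates that carried neither allele. By label, replicate 2 was male and replicates 1, 3, 4, 5, and 6 were female. The series' text calls the samples of a genotype biological replicates and says that they were matched by somite number. Whether a library holds 1 yolk sac or several is not stated, and whole tissue was extracted with no sorting of cells.

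The yolk sac is an extraembryonic membrane with an endoderm and a mesoderm layer. Its outer visceral endoderm is a polarized epithelium that faces the maternal side, takes up maternal proteins through endocytic receptors, and secretes lipoproteins and plasma proteins, roles that the liver takes over later. Its inner mesoderm is the first site of blood formation, where primitive red cells arise in blood islands beside the first endothelial cells. Primitive red cells of the mouse make embryonic globins, encoded by Hbb-y and Hbb-bh1 (β-like) and Hba-x (α-like), before adult globins appear. Etv2 is a transcription factor that acts early in the blood and endothelial lineages.

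Levels are given as CPM, the reads of a gene scaled to a fixed library total, obtained by undoing the log2 scale of the deposited values. The libraries held 5718619 to 14700743 reads in genes (median 10140300), so that 1 read was worth 0.0677 to 0.181 CPM. Between 15511 and 16461 genes of 18477 had at least 1 read. Pearson's r between libraries, over the log2 levels of genes with a mean of 10 CPM or more, was 0.940 to 0.970. The label of sex matched Xist, the RNA that coats the inactive X chromosome, which was at 1.82 CPM in replicate 2 and at 518 to 637 CPM in the others. Replicate 1 had the fewest reads, the largest mitochondrial share (16.5% of CPM, against 9.69% to 14.7%), and the smallest share of blood genes (0.574%). Its shares of visceral endoderm (5.20%), mesoderm (0.459%), and endothelial genes (0.172%) were also the lowest of the 6 libraries. The total of these shares includes the mitochondrial genes, so that a larger mitochondrial share lowers every other share. The order of the libraries without mitochondrial genes in the total was not tested.

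The RNA was spread over many genes, with a few mitochondrial and visceral endoderm genes at the top. A mean of at least 1 CPM was reached by 12637 genes, 10 CPM by 8365, 100 CPM by 2145, and 1000 CPM by 68. The most abundant gene held 5.18% of all CPM, the first 10 genes 15.9%, the first 100 genes 29.3%, and the first 1000 genes 58.6%. It took 611 genes to reach 50% of the total, with 519 (replicate 1) to 660 (replicate 3) in single libraries. Protein-coding genes held 91.1% ± 1.82 (SD, n = 6) of CPM and the mitochondrial rRNAs 7.57% ± 1.85.

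Of the 30 most abundant genes measured, 8 were encoded by the mitochondrial genome and 22 by the nucleus. Some mitochondrially encoded messengers were not measured. Of the 22, 4 were visceral endoderm genes (Apob, Cubn, Dab2, and Ttr) and 1 was a blood gene (Hbb-y), whereas none was on the mesoderm or endothelial lists described below. The mitochondrial 16S rRNA gene mt-Rnr2 was the highest at 51966 ± 12127 CPM (SD, n = 6). The 12S rRNA gene mt-Rnr1 followed at 24010 ± 8327 CPM. Apob, which encodes the structural protein of lipoproteins (mm9, chromosome 12, 7984454 to 8023641, plus strand), was the highest nuclear gene at 23368 ± 2272 CPM. Its lowest library was at 21230 CPM, its median at 22654, and its highest at 26490. Its libraries thus lay close together, and only the mitochondrial rRNAs were above it by mean CPM.

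Other leading nuclear genes served uptake, fuel transport, and imprinted growth control. Cubn, the endocytic receptor cubilin, was at 11115 ± 1176 CPM. Slc2a3 and Slc2a1, which encode glucose transporters, were at 6746 ± 665 and 2967 ± 321 CPM. Slc16a1, which encodes a lactate and pyruvate transporter, was at 2457 ± 191 CPM. Emb, an ancillary protein of such transporters, was at 2589 ± 369 CPM. Genes known to be imprinted made up another group. Peg10 was at 4272 ± 772 CPM, Peg3 at 2317 ± 84.0, Mest at 2308 ± 249.9, and H19, a non-coding RNA, at 1983 ± 205. These 4 genes are known regulators of placental or fetal growth. Peg10 was highest in replicates 1 and 6 (5298 and 5204 CPM) and between 3607 and 4030 CPM in the other 4. Some of these genes share exon bases with another gene record on either strand (Mest 23.0%, Dab2 18.7%, and Emb 14.8%), and whether the counting used strand is not given in the sources used here. The translation factor gene Eif4g2 was the steadiest of the 30, with 4712 to 5090 CPM and a coefficient of variation (CV, the SD over the mean) of 2.78%. Of the 30 genes, 21 had a CV below 20% and 2 had a CV of 30% or more, mt-Rnr1 (34.7%) and Hbb-y (61.0%). A CV of 30% or more was found in 15.5% of all genes at 10 CPM or more. At 1000 CPM or more it was found in 4.41% of 68 genes.

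**Figure D1:**
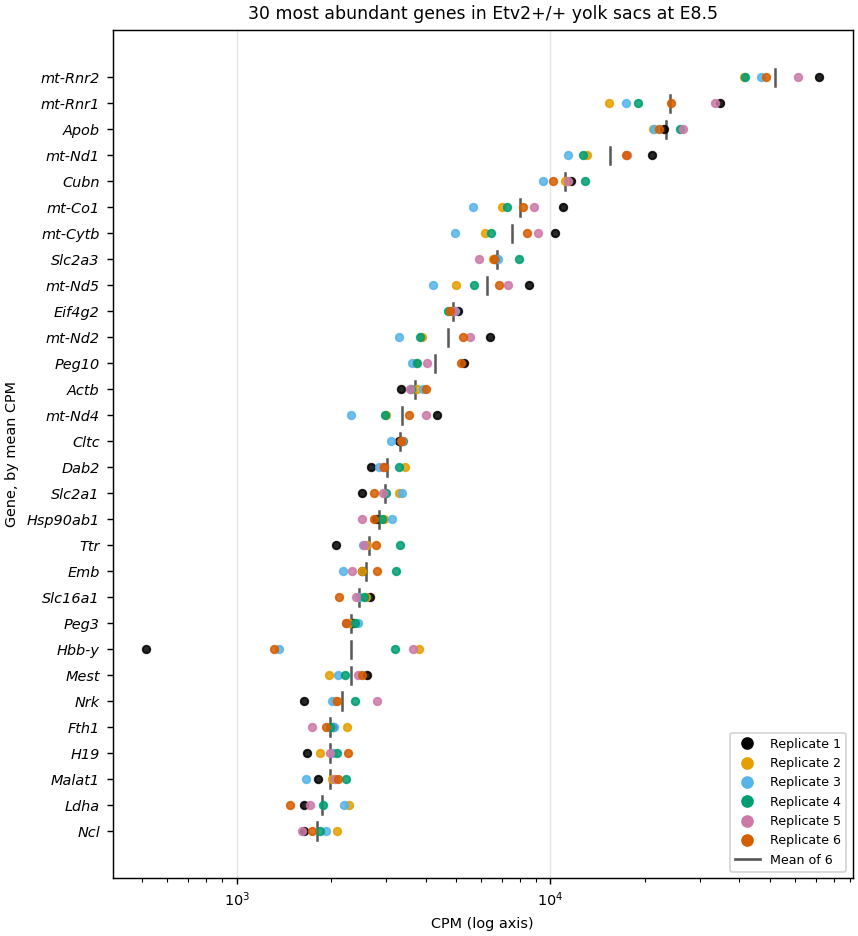
Levels of the 30 most abundant genes, in CPM on a log axis, with 1 point for each of the 6 wild-type libraries and a vertical mark for the mean. The libraries lie close together for most genes, whereas those of Hbb-y run from 515 to 3809 CPM.

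CPM favors long transcripts, since a longer RNA yields more reads. Divided by exon length, the order of the leading genes changed. Apob, with 13934 exon bases, moved from the third to rank 14 at 1677 CPM per kb. Hbb-y, with 661 exon bases, moved from rank 23 to rank 8 at 3493 ± 2133 CPM per kb. Ttr, which encodes the thyroid hormone carrier transthyretin, moved from rank 19 to rank 12 at 2168 ± 336 CPM per kb, above Apob on this scale. mt-Rnr2 and mt-Rnr1 kept the first and the second rank.

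The bases just before the annotated start sites of 4 genes are given here. They are from RefSeq on GRCm38.p6 and not on the build of the counts, run 5′ to 3′ on the gene's strand, and end at the base before the start. Apob and Afp were chosen as a lipoprotein and a plasma protein gene of the visceral endoderm, and Hbb-y and Hba-x as the most abundant embryonic globins. Capitals mark short elements on either strand, namely the letters TATAAA, known as a TATA box. They also mark the letters CCAAT, known as a recognition element of the factor NF-Y, and the letters CACCC, known as a recognition element of Klf factors. The letters AGATAA, or with the same role TGATAA, which Gata factors are known to recognize, are marked likewise.
Apob (chr12:7977527-7977676, plus strand): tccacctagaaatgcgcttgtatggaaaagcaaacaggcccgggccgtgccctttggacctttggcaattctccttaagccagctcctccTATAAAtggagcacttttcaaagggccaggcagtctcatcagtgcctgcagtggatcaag
Afp (chr5:90490564-90490713, plus strand): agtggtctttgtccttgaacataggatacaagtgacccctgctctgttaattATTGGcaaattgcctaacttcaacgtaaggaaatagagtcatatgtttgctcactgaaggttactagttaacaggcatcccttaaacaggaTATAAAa
Hbb-y (chr7:103853208-103853357, minus strand): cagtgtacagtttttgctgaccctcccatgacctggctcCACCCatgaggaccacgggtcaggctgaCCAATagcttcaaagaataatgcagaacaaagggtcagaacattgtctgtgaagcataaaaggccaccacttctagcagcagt
Hba-x (chr11:32276450-32276599, plus strand): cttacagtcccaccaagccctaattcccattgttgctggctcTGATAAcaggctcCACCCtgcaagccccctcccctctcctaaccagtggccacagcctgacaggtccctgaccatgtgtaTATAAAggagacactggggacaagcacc

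In these windows, TATAAA was present before Apob, Afp, and Hba-x, and CCAAT before Afp and Hbb-y. CACCC was present before both globins, and a Gata element before Hba-x alone. The TATAAA match lay 60 to 55 bases before the annotated start of Apob, 7 to 2 before that of Afp, and 28 to 23 before that of Hba-x. Where transcription starts in these libraries was not measured. Other spellings of these elements were not searched. Over the 250 bases before the start, a Gata element (either spelling, either strand) was present in 17.0% of all 27025 promoters of the table. Class genes were counted where they had a mean of 10 CPM or more and a promoter in the table, whereas the set of all promoters was not filtered by level. A Gata element was present in 39.0% of 41 blood genes (16 genes), 20.9% of 43 visceral endoderm genes, 5.56% of 18 mesoderm genes, and 0 of 22 endothelial genes. CACCC was in 51.3% of all promoters and in 65.1%, 72.2%, 73.2%, and 86.4% of the visceral endoderm, mesoderm, blood, and endothelial genes, respectively. CCAAT was in 34.5% of all promoters and, in the same order, in 37.2%, 22.2%, 36.6%, and 27.3% of the genes of the classes. TATAAA was in 13.0% of all promoters and in 12.2% to 18.2% of the genes of each class. These matches are a description of letters and were not tested.

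Genes were assigned to the layers and cell types of the yolk sac by lists of known markers, and the CPM of a list was summed in each library. Visceral endoderm genes held the largest share of CPM, followed by blood, mesoderm, and endothelial genes, and this order was the same in 6 of 6 libraries. The visceral endoderm list (77 genes measured, 58 of them at a mean of 10 CPM or more) held 5.58% ± 0.416 of CPM (SD, n = 6), from 5.20% to 6.34%. The blood list (92 and 58 genes) held 0.869% ± 0.216, from 0.574% to 1.12%. The mesoderm list (48 and 31 genes) held 0.493% ± 0.0293, from 0.459% to 0.533%. The endothelial list (48 and 29 genes) held 0.192% ± 0.0158, from 0.172% to 0.215%. In whole tissue, fewer cells of a type and less RNA per cell cannot be told apart, and the shares also depend on how many genes a list holds.

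Within each library, the visceral endoderm share was 6.58-fold the blood share (geometric mean, 5.09-fold to 9.07-fold), 11.3-fold the mesoderm share (10.3-fold to 12.6-fold), and 29.0-fold the endothelial share (27.7-fold to 30.3-fold). The blood share was 4.41-fold the endothelial share (3.34-fold to 5.94-fold), and the mesoderm share was 2.56-fold the endothelial share (2.35-fold to 2.72-fold). The mesoderm share was 0.582-fold the blood share (0.43-fold to 0.80-fold). Each of the 6 ratios had p = 0.03125 (exact two-sided sign-flip permutation test over the 6 libraries; adjusted p = 0.03125 by the Benjamini-Hochberg method over the 6 pairs), the smallest value that 6 libraries can give. The lists differ in size and were chosen with earlier results of these data known. The p-values thus say only that the sums of these lists differed in the same direction in each library, and they do not rank the cell types. Without globins the blood share was 0.563%, its difference from the mesoderm share did not pass the test (log2 ratio of mesoderm to blood -0.19, p = 0.09375, exact permutation test), and the other ratios kept their call. The ratio of visceral endoderm to endothelium varied least between libraries (SD 0.06 on the log2 scale) and the ratio of mesoderm to blood most (SD 0.39).

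**Figure D2:**
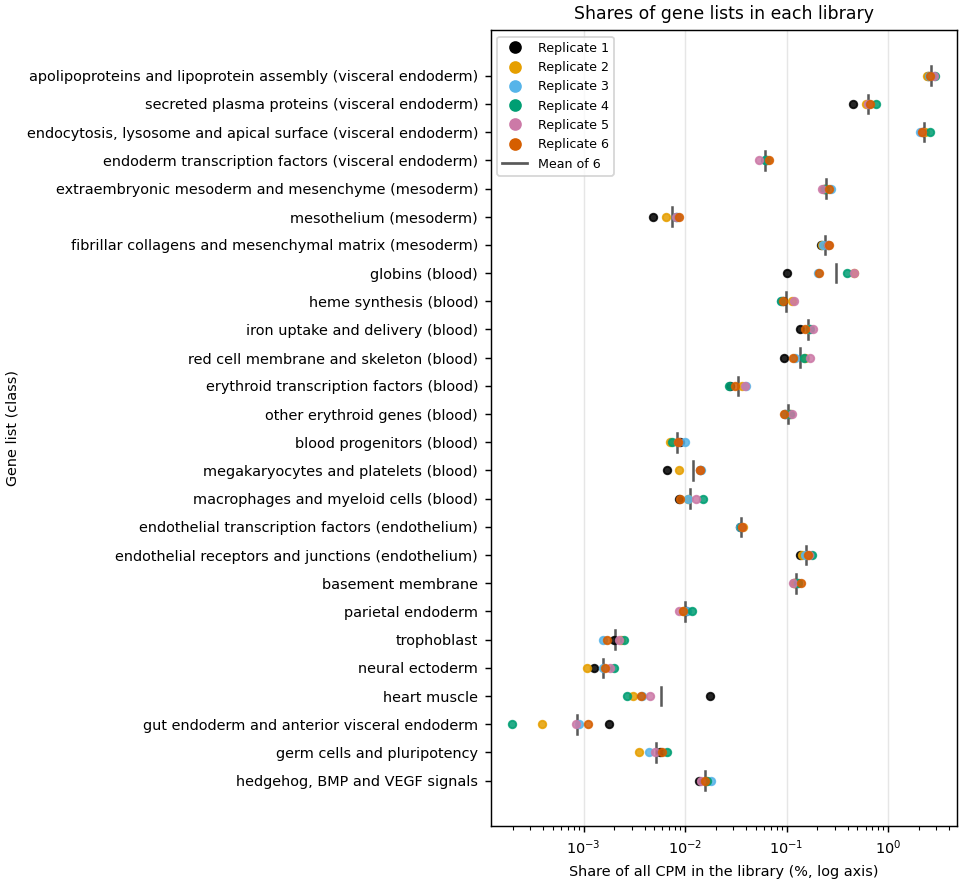
Share of library CPM held by each gene list, in percent on a log axis, with 1 point for each of the 6 wild-type libraries and a vertical mark for the mean; paraxial mesoderm is not drawn, since it was 0 in a library. The visceral endoderm lists of lipoproteins and endocytosis lie near 2.63% and 2.25%, and globins spread from 0.102% to 0.463%.

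The classes differed in how evenly their CPM was spread over genes. Apob alone held 41.9% ± 2.11 of the visceral endoderm sum, and Apob, Cubn, Dab2, Ttr, and Lrp2 together held 75.2%. Fn1 held 21.7% of the mesoderm sum, and Lyve1 held 12.8% of the endothelial sum. Hbb-y held 24.5% of the blood sum with an SD of 10.8, the largest spread among these leading genes.

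The visceral endoderm was represented by genes of lipoprotein assembly, plasma proteins, endocytosis, and transcription. Lipoprotein genes held 2.63% ± 0.204 of CPM, most of it Apob. Apoa1, which encodes the main protein of high-density lipoprotein, was at 893 ± 145 CPM. Per kb, Apob was 2.34-fold higher than Apoa1 (1.95-fold to 3.89-fold, higher in 6 of 6 libraries; exact sign-flip p = 0.03125, adjusted p = 0.0357 over 8 gene pairs). Apoa1 lay between 901 and 1003 CPM in 5 libraries and at 605 CPM in replicate 5, the library in which Apob was highest. Mttp, which loads lipid onto Apob, was at 403 CPM at the lowest, 484 at the median, and 516 at the highest. Apoc2, an activator of lipoprotein lipase, was at 320.1, 407, and 485 CPM by the same measures. The CV was 9.72% for Mttp and 16.2% for Apoc2, close to the 16.3% of Apoa1.

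Secreted plasma proteins held 0.628% ± 0.105 of CPM and were led by 3 carriers. Ttr was at 2066 CPM at the lowest, 2575 at the median, and 3327 at the highest. Afp, the fetal counterpart of albumin, was at 926, 1819, and 1994 CPM. Rbp4, the carrier of retinol, was at 1174, 1445, and 1637 CPM. Each of the 3 was lowest in replicate 1. Alb, the adult albumin gene next to Afp, had 7 reads in all 6 libraries together and none in 3 of them. With Alb set to a floor of 3 reads per library where it was lower, Afp per kb was at least 4758-fold higher (geometric mean; 1674-fold to 9619-fold, adjusted p = 0.0357, exact permutation test). The fibrinogen gene Fga was at 155 ± 34.0 CPM. Fibrinogen genes are, like the carriers, active in the liver in later life.

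Endocytosis, lysosome, and apical surface genes held 2.25% ± 0.185 of CPM. Cubn ranged from 9496 CPM in replicate 3 to 12884 CPM in replicate 4. Amn, which encodes the partner that carries cubilin to the cell surface, was much lower per length, at 53.2 ± 11.6 CPM per kb against 941 ± 99.5 CPM per kb for Cubn. Dab2, a clathrin adaptor for such receptors, was at 3022 ± 285 CPM. Lrp2, the receptor megalin, was at 1743 ± 227 CPM, with its highest value in replicate 1 (2080 CPM). The lysosomal protease gene Ctsl was at 1633 ± 203 CPM. Cubn, Dab2, Lrp2, and Ctsl were thus 4 of the 7 highest visceral endoderm genes by mean CPM, the others being Apob, Ttr, and Afp.

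Endoderm transcription factors were far lower and held 0.0617% of CPM. Hnf4a, a nuclear receptor that drives hepatic and visceral endoderm genes, was at 288 ± 23.4 CPM. Gata4 was at 76.9 ± 17.5 CPM and Foxa2, a forkhead factor, at 24.6 ± 5.56 CPM. Per kb, Gata4 was 1.18-fold its paralog Gata6 (0.991-fold to 1.77-fold, higher in 5 of 6 libraries), which did not pass the exact permutation test (p = 0.0625, adjusted p = 0.0625). All 10 genes set as defining markers of the visceral endoderm were above 10 CPM in every library, the lowest value being 17.6 CPM for Foxa2. The markers of the labelled tissue were thus present in each library.

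Most of the blood sum came from red cell lists, which hold 65 of the 92 blood genes measured. The sum thus follows the make-up of the lists and does not show which blood lineage the RNA came from. The lists of globins, heme synthesis, iron, membrane, and erythroid factors and other erythroid genes held 0.837% of CPM of the 0.869% of all blood lists. Hbb-y (mm9, chromosome 7, 111000259 to 111001754, minus strand) was the highest at 515 CPM in replicate 1, 3809 in replicate 2, 1364 in replicate 3, 3196 in replicate 4, 3653 in replicate 5, and 1318 in replicate 6. Replicates 2, 4, and 5 were thus at 3196 CPM or more and replicates 1, 3, and 6 at 1364 CPM or less, with no value in between. Hba-x (chromosome 11, 32176400 to 32178116, plus strand) was at 406, 595, 493, 554, 769, and 579 CPM in replicates 1 to 6. Hbb-bh1 (chromosome 7, 110990150 to 110991678, minus strand) was at 123, 168, 149.8, 172, 245, and 164 CPM in the same order. Both were lowest in replicate 1 and highest in replicate 5, and both varied far less than Hbb-y, with CVs of 21.4% and 23.9% against 61.0%.

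Per kb, Hbb-y was 10.4-fold higher than Hbb-bh1 (3.90-fold to 21.0-fold, adjusted p = 0.0357, exact permutation test). Hba-x was 2.18-fold higher than Hbb-bh1 (2.06-fold to 2.32-fold, adjusted p = 0.0357, exact permutation test). The ratio of Hba-x to Hbb-bh1 thus hardly moved between libraries, whereas that of Hbb-y to Hbb-bh1 was lowest in replicate 1 and moved widely. Hbb-bh0, a pseudogene record of 129 exon bases that lies between the other embryonic β-like genes, was counted at 177 ± 66.9 CPM, with 60.1 CPM in replicate 1 as its lowest value and 264 CPM in replicate 5 as its highest. It was named after its values were seen. Adult globins were low. The adult β genes on the list had means between 1 and 10 CPM. The adult α genes were at 1.84 CPM for Hba-a1 and 0.821 CPM for Hba-a2, where 3 reads are worth 0.203 to 0.542 CPM. Hba-x was 184-fold the sum of these 2 per kb (128-fold to 359-fold, adjusted p = 0.0357, exact permutation test). Only 4.45% and 5.55% of the 32-base words in the exons of Hba-a1 and Hba-a2 occurred at a single place in the mm9 genome, so that reads of these near-identical genes may have been lost in counting and their levels are uncertain. Per kb of such words, an alternative chosen after seeing the data, the log2 ratio of Hba-x to their sum was 3.14 in place of 7.52 (p = 0.03125, exact permutation test), and the size of this difference is thus not settled.

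Heme and iron genes were measured well above these adult globins. Cpox, an enzyme of heme synthesis, was at 384 ± 75.0 CPM. Fech, which inserts the iron, was at 266 ± 52.9 CPM. Alas2, the erythroid enzyme of the first step, was at 28.1 ± 8.51 CPM, below both on this scale and also per kb (11.7 CPM per kb against 120.4 for Cpox). Slc25a37, the mitochondrial iron importer mitoferrin, was at 404 ± 88.1 CPM and Tfrc, the transferrin receptor, at 388 ± 77.5 CPM. Tfrc and Cpox also serve dividing cells that make no hemoglobin.

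Red cell membrane genes held 0.134% ± 0.0281 of CPM. Slc4a1, the anion exchanger band 3, was at 163 CPM in replicate 1, 423 in replicate 2, 224 in replicate 3, 385 in replicate 4, 416 in replicate 5, and 249 in replicate 6. Replicates 2, 4, and 5 were above the other 3, the same split as for Hbb-y. Epb41, a protein of the membrane skeleton that many cells use, was at 213 ± 10.6 CPM with a CV of 4.98%.

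Erythroid transcription factors had means of at most 85.6 CPM. Tal1, needed for the start of blood formation, was at 47.8 CPM at the lowest, 80.6 at the median, and 117 at the highest. Klf1, an activator of globin and membrane genes, was at 44.4, 61.5, and 70.7 CPM, with replicate 1 lowest. Gata1 was at 17.2, 19.4, and 25.2 CPM. The CV was 29.8% for Tal1, 15.8% for Klf1, and 17.4% for Gata1, against a median of 17.2% over all genes at 10 CPM or more. Of the 9 erythroid factors at that level, 3 had a CV of 30% or more, against 15.5% of all such genes. Their median CV was 27.3%. The CV falls with level, and these values were not matched for level or tested.

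The lists of other blood lineages summed to small shares, and only 9 of 15 macrophage genes listed were measured. Progenitor genes held 0.0084% of CPM, megakaryocyte genes 0.0120%, and macrophage genes 0.0111%. Runx1, a factor of blood progenitors and hemogenic endothelium, was at 51.1 ± 5.76 CPM. Itgb3, a subunit of the platelet integrin, was at 38.3 ± 10.7 CPM and was lowest in replicate 1 (18.8 CPM). Mrc1, a scavenger receptor that yolk sac endothelium and macrophages both make, was at 102 ± 18.1 CPM. It held nearly all of the macrophage list, whose next genes Csf1r and Cd68 were at 2.52 and 2.54 CPM.

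Mesoderm genes fell into general mesenchymal and matrix genes at high level and regional factors at lower level. Fn1, the matrix protein fibronectin, was at 1068 ± 61.4 CPM. Ahnak, a large scaffold protein, was at 939 ± 83.0 CPM, and Vim, the filament protein vimentin, at 392 ± 44.8 CPM. These 3 genes held 48.8% of the mesoderm sum and are also made by endothelium and other cells. Ptch1, a receptor and target of hedgehog signals, which the visceral endoderm sends to the mesoderm, was at 219.7 ± 20.2 CPM. Its ligand gene Ihh was at 17.9 ± 5.71 CPM. Lum, a matrix proteoglycan, was between 199 and 212 CPM in replicates 1 to 3 and between 339.9 and 384 CPM in replicates 4 to 6, with no value in between.

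Hand1, a factor of extraembryonic mesoderm, was at 155, 141, 169.8, 111, 147, and 193 CPM in replicates 1 to 6. Its paralog Hand2, better known from heart and limb, was at 12.5, 4.31, 6.09, 10.2, 7.99, and 10.9 CPM. Per kb, Hand1 was 20.7-fold higher (12.2-fold to 36.5-fold, adjusted p = 0.0357, exact permutation test). Tbx20 was at 110.3 ± 28 CPM, Pdgfra, a receptor of mesenchymal cells, at 86.4 ± 22.1, and Bmp4, a signal that the yolk sac mesoderm sends, at 44.2 ± 5.69. Foxf1 was at 9.82 ± 5.48 CPM, with 19.8 CPM in replicate 3 and 4.06 to 11.5 in the others. Mesothelial genes held 0.0074% of CPM and were led by Lrrn4 at 32.9 ± 6.93 CPM.

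Endothelial genes held the smallest share of the 4 classes. Lyve1, a hyaluronan receptor made by yolk sac endothelium, was the highest at 245 ± 25.5 CPM. It lay between 243 and 268 CPM in 5 libraries and at 196 CPM in replicate 1. Nrp1, a co-receptor for Vegf that other cells also make, was at 218 ± 34.5 CPM. Tek, the receptor of angiopoietins, was at 123 ± 22.7 CPM. Kdr, the main Vegf receptor, was at 85.2, 66.7, 116, 113, 103.8, and 107 CPM in replicates 1 to 6. Flt1, a receptor that binds Vegf and limits it, was at 47.5, 54.4, 75.3, 93.0, 63.6, and 61.5 CPM. Per kb, Kdr was 2.40-fold higher (1.93-fold to 2.86-fold, adjusted p = 0.0357, exact permutation test). Cdh5, the junction protein VE-cadherin, was at 85.0 ± 13.9 CPM and Pecam1 at 23.6 ± 5.95. Kdr, Tek, and Cdh5 were each lowest in replicate 2.

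Endothelial transcription factors held 0.0358% of CPM, and their sum had the smallest relative spread of all lists (0.0348% to 0.0371%). The single genes were less steady. Of the 9 members at 10 CPM or more, 4 had a CV of 30% or more, against 15.5% of all genes at that level. Their median CV was 24.5%, against 17.2% over all such genes. As for the erythroid factors, these values were not matched for level or tested. Ets2 and Ets1, which many cell types make, led the list. Fli1 was at 37.3 ± 6.04 CPM and Erg at 12.3 ± 4.16 CPM. Etv2 itself was at the limit of detection, with 10 reads in the 6 libraries together, 0 reads in 3 of them, and 0.491 CPM at the highest. At a floor of 3 reads, a count of 0 allows up to 0.203 to 0.375 CPM in those 3 libraries, for counting error only. It was named because the series is built on this gene.

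Lists of tissues that the yolk sac should lack summed to small shares, although some of their genes were well measured. Genes of paraxial mesoderm and somites summed to 0.0001% of CPM, of neural ectoderm to 0.0016%, of trophoblast to 0.0021%, of germ cells and pluripotency to 0.0052%, and of parietal endoderm to 0.010%. The highest parietal endoderm genes were Dusp6, a phosphatase induced by growth factor signals in many cells, at 40.7 ± 9.60 CPM and Pth1r, a hormone receptor, at 32.3 ± 7.77 CPM. Prdm1, a transcriptional repressor of the germ cell list, was at 40.4 ± 7.17 CPM. These 3 genes were above 20 CPM in every library. Plac1, a trophoblast gene, was at 14.7 ± 3.51 CPM, and Nes, made by neural progenitors and also by young endothelium, was at 12.9 ± 4.11 CPM. Heart muscle genes summed to 0.0175% in replicate 1 and to 0.0027% to 0.0045% in the other 5 libraries. Ttn, the giant sarcomere protein, was at 78.7 CPM in replicate 1 and at 0.783 to 15.2 CPM in the others. Myl7, an atrial myosin light chain, was at 15.3 CPM in replicate 1 and at 0.0982 to 3.48 CPM in the others. The parts of other tissue and of the larger mitochondrial share in that library's lower blood share were not tested. The same holds for its lower shares of the other classes.

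Genes of basic cell functions set a frame for these levels. Mitochondrially encoded genes held 12.2% ± 2.82 of CPM, glycolysis 1.28% ± 0.124, cytoplasmic ribosomal proteins 1.24% ± 0.138, and imprinted and growth genes 1.48% ± 0.104. Each of the 9 mitochondrially encoded genes listed was highest in replicate 1. The glycolysis list includes the glucose transporter genes Slc2a3 and Slc2a1, which were its highest members at 6746 and 2967 CPM and held most of its share. Ldha, which makes lactate, was its highest enzyme gene at 1865 ± 318 CPM, and the median member was at 70.8 CPM. Several genes of this kind that have close copies elsewhere in the genome were listed at low levels. Gapdh was at 12.1 ± 6.97 CPM, with 46.7% of its 32-base words at a single place in the genome. Pgam1, another glycolytic gene, was at 4.64 ± 1.71 CPM, with 6.38% of its words at a single place. Actg1, a cytoplasmic actin gene, was at 3.61 ± 1.38 CPM, with 32.7%.

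Among 77 ribosomal protein genes, the 6 with at least 90% of words at a single place had a median of 409 CPM. The 49 genes with 50% to 90% had a median of 62.5 CPM, and the 22 genes with less had a median of 42.5 CPM. The order was not strict, since Rplp1 was at 569 ± 49.6 CPM with 24.9% and Eef1a1, a translation factor gene with many copies in the genome, was at 1458 ± 39.5 CPM with 41.9%. The part of shared sequence in these levels was not tested. Nearly all class genes had little shared sequence. At least 90% of words were at a single place for 73 of 77 visceral endoderm genes, 46 of 48 mesoderm genes, 85 of 92 blood genes, and 48 of 48 endothelial genes.

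**Figure D3:**
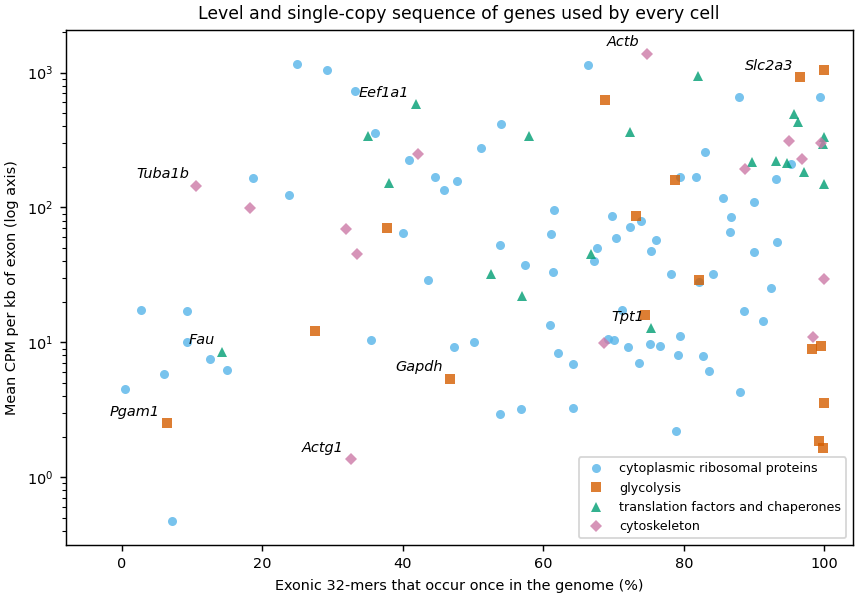
Mean level over the 6 wild-type libraries, in CPM per kb of exon on a log axis, against the percent of exon 32-base words that occur at a single place in the mm9 genome, with 1 point per gene of the ribosomal protein, glycolysis, translation and chaperone, and cytoskeleton lists. Low levels such as those of Pgam1 (6.38%) and Actg1 (32.7%) are seen where few words are at a single place, but high levels occur there too, as for Eef1a1 (41.9%).

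The spread between replicates was small for most genes and larger than counting alone gives. Among the 8365 genes with a mean of 10 CPM or more, the median CV was 17.2%, against 4.87% from the counting of reads. At 100 CPM or more it was 10.9%, and at 1000 CPM or more it was 9.93%. A CV of 30% or more was found in 1293 genes, 15.5% of those tested. Among class members that reached 10 CPM, it was found in 9 of 58 visceral endoderm genes, 4 of 31 mesoderm genes, 10 of 29 endothelial genes, and 19 of 58 blood genes. The visceral endoderm and mesoderm counts were thus at or below the share of all genes, and the blood and endothelial counts above it. The CV falls with level and the classes differ in level, and whether the counts differ from that share was not tested.

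**Figure D4:**
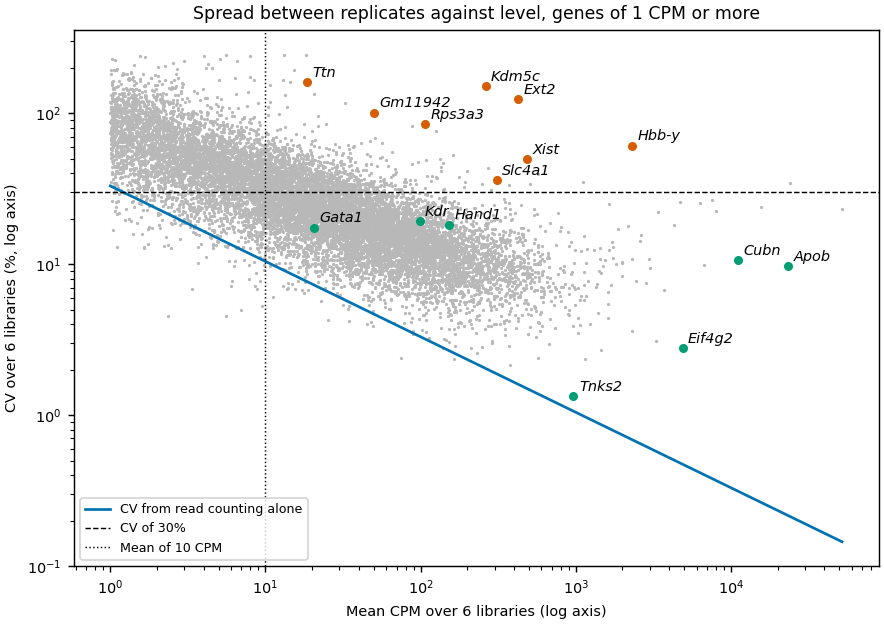
CV over the 6 wild-type libraries, in percent, against mean CPM, both on log axes, with 1 gray point per gene of 1 CPM or more, named genes in orange (CV of 30% or more) or green (below it), and a blue line for the CV that read counting alone gives. Nearly all genes at 10 CPM or more lie above the CV that counting gives (27 of 8365 lie below their own), and Hbb-y stands at 61.0%, far above genes of like level.

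Many blood genes had their extreme values in the same libraries, although this did not hold for every list. Of the 58 blood genes at 10 CPM or more, 27 had their lowest value in replicate 1, against 18.6% of all genes at that level. In the visceral endoderm this was so for 21 of 58 genes, in the mesoderm for 9 of 31, and in the endothelium for 9 of 29. Of the blood genes, 20 were highest in replicate 2 and 20 in replicate 5, against 22.7% and 12.7% of all genes. Among 52 erythroid genes, 38 were highest in replicate 2 or 5, against 35.4% of all genes, and 24 were lowest in replicate 1. The erythroid share was 0.549% in replicate 1, 1.04% in replicate 2, 0.717% in replicate 3, 0.939% in replicate 4, 1.08% in replicate 5, and 0.695% in replicate 6. Without globins it ran from 0.447% (replicate 1) to 0.622% (replicate 5), with replicates 2, 4, and 5 still above the others and a CV of 12.0% in place of 25.6%. Replicate 2 was the male library, and replicates 4 and 5 were female. With replicate 1 left out, the blood share was 0.928% ± 0.180 (n = 5) in place of 0.869% ± 0.216.

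**Figure D5:**
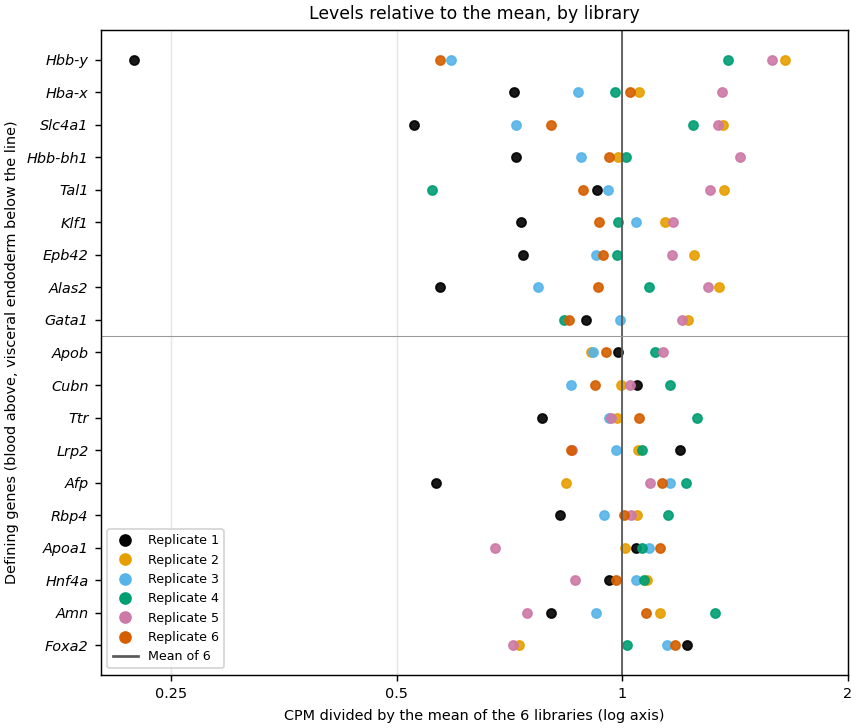
Level of 9 defining blood genes (above the gray line) and the 10 defining visceral endoderm genes (below it), as CPM over the gene's mean of the 6 wild-type libraries on a log axis, with 1 point per library. Replicate 1 is the lowest library for Hbb-y, Hba-x, Hbb-bh1, Slc4a1, Klf1, Epb42, and Alas2, and also for Ttr, Afp, and Rbp4 among the visceral endoderm genes. The libraries of Apob, Cubn, and Hnf4a stay near the mean, whereas those of Afp (CV 24.9%), Foxa2 (22.6%), and Amn (21.8%) spread as widely as those of Hba-x (21.4%).

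The shares of the classes were not clearly related to each other across libraries. For visceral endoderm and endothelium, Pearson's r was 0.88 (p = 0.00972, adjusted p = 0.0583 over 6 pairs, exact permutation test) and Spearman's rho was 0.94 (p = 0.0167, adjusted p = 0.1). Without replicates 1 and 4, the farthest from the median, r was 0.70. Over the 10 defining genes of each class, r was 0.38. The other 5 pairs had r from -0.14 to 0.63, with adjusted p of 0.479 to 0.7625 (exact permutation test). Shares of the same total are not independent of each other.

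The steadiest and the least steady genes at 50 CPM or more were of different kinds. Tnks2, which encodes the poly-ADP-ribosyltransferase tankyrase 2, had the lowest CV at 1.33%, from 945 to 981 CPM. Usp7, a deubiquitinase, followed at 2.16% and Hnrnpu, an RNA-binding protein, at 2.35%. Epas1, a hypoxia-inducible factor, was between 72.1 and 76.5 CPM with a CV of 2.39%. Read counting alone gives 1.06% for Tnks2, 1.70% for Usp7, and 0.975% for Hnrnpu, and it gives more at the lower level of Epas1. Of 8365 genes at 10 CPM or more, 27 had a CV below that of counting. These genes were picked for a low CV, so that their values are not a test of steadiness. At the other end, Kdm5c, an X-linked histone demethylase gene, was at 1073 CPM in replicate 2 and at 89.2 to 109.6 CPM in the others. Replicate 2 is the only male library, so that sex and library cannot be told apart here. Ext2, an enzyme of heparan sulfate synthesis, was at 132, 188, 1439, 128, 84.9, and 579.7 CPM in replicates 1 to 6. Preb was at 309.9 CPM in replicate 6 and Rab11fip1, a protein of recycling endosomes, at 236 CPM in replicate 3, above 56.4 to 128 and 47.4 to 80.0 CPM, respectively. Of the 10 genes with the highest CV, 3 carry ribosomal protein names (Rps3a3, Rpl35a, and Rpl34) and 2 are gene models with no function in their name (Gm11942 and Gm14681). Gm11942 was at 91.8 to 98.5 CPM in replicates 2, 3, and 4 and at 3.91 to 4.62 CPM in replicates 1, 5, and 6.

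Such a split into present and nearly absent was rare. Of 6236 genes that reached 30 CPM in a library, 13 had a 10-fold gap between neighbors in the order of the libraries. Xist and the Y-linked genes Ddx3y, Eif2s3y, Kdm5d, and Uty, with summed Y-linked CPM of 267 in replicate 2 and at most 0.812 elsewhere, followed the sex label. The other 8 were 6 records annotated as pseudogenes and 2 annotated as protein coding, Rps13-ps1 and Rps3a3. Of these, Ftl2-ps, named after its values were seen, was low in replicate 1 alone (0.181 CPM against 36.5 to 45.5 CPM).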

How the data were processed

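Yolk sac RNA (10 ng per sample) was converted to cDNA libraries by the Trio RNA-seq kit for HiSeq sequencing. Per the study's methods and processing notes, STAR 2.5.2a was the aligner (build mm9, after trimming by fastq-mcf), featureCounts gave counts per Ensembl gene, and edgeR factors set the library sizes, so that the CPM of a library does not sum to exactly the nominal total. The deposited table by the authors holds log2(CPM + 1) for each sample, and these log2 values were used for the 6 Etv2+/+ columns. Its other 9 columns hold the authors' own comparisons (log2 fold changes, mean log2 CPM, a likelihood ratio score, p-value, and false discovery rate) and were not used. Samples were grouped by genotype label. The study names 2 processing batches, which the labels do not give per sample.

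CPM was computed as 2 to the power of the value, minus 1. The smallest CPM above 0 in a library is 1 read, and 100% of values were then whole reads within 0.01. No filter was used for levels and shares, and a mean of 10 CPM for counts of genes by CV. Exon lengths and coordinates are from GENCODE vM1 on mm9, which held 18427 of 18477 genes. Of 579 genes on 36 lists, 529 had a row in the table. Ratios within libraries were tested by exact sign-flip permutation, which with 6 libraries gives a smallest p of 0.03125, and relations by exact permutation of pairings. Where p is given, it refers to these libraries only. The sign-flip p takes its smallest value when all 6 ratios lie on the same side of 1, whatever their spread. CV is set beside the CV of counting, with the step tested on simulated data. Calculations used scipy 1.17.1, pandas 2.3.3, and numpy 2.4.6 under Python 3.11.15. Named genes are the 30 highest, the 4 highest of each list, 10 defining genes of each class, the 10 highest and 10 lowest CVs at 50 CPM or more, and members above 1 CPM of lists that the tissue should lack; genes of the 8 tested pairs are also named. A withheld blood gene is counted in the sums but not reported here. Members and lists were chosen with earlier results of these data known. Alternatives were other totals, units, lists, filters, and thresholds, and each library left out.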

Additional observations from a re-analysis of the deposited data

Results flagged for a closer look

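In 10 of 168 groups of 6 libraries tested, the highest or lowest library stood far from the nearest other (Dixon's criterion). Chance flags about 1 in 20 groups, but this rate does not hold for genes that were named for a high or low CV over the same libraries, as Ext2, Kdm5c, Preb, Rab11fip1, and Hnrnpu were.

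In replicate 1, the share of heart muscle genes was 0.0175% against 0.00268% to 0.00448% in the others, and Lyve1, the highest endothelial gene, was lowest at 196 CPM against 243 to 268. In replicate 2, the male library, Kdm5c was at 1073 CPM against 89.2 to 109.6, and Hnrnpu at 1201 CPM against 1127 to 1148. In replicate 3, Ext2 was at 1439 CPM against 84.9 to 579.7, Rab11fip1 at 236 CPM against 47.4 to 80.0, and Cltc, the clathrin heavy chain, lowest at 3114 CPM against 3286 to 3377. In replicate 5, Apoa1 was lowest at 605 CPM against 901 to 1003. In replicate 6, Preb was at 309.9 CPM against 56.4 to 128, and the share of paraxial mesoderm genes was 0.00031% against at most 6.99e-05%.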

How the results depend on the processing

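Of 99 alternatives to 31 results, each library left out aside, 67 kept the call or stayed within the spread between libraries, 26 moved a value, 2 brought a result under the threshold of 0.05, 2 took one above it, and 2 turned a direction. The order of the mean shares of the 4 classes held under each alternative total, unit, and list tried. The 32-base alternatives and blood without Hbb-y were chosen after seeing the data.

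The visceral endoderm share (5.58%) was 6.35% without mitochondrially encoded genes in the total, 3.57% per kb of exon, 4.33% over the 10 defining genes, and 1.82% without the 3 highest members. In the same order, the mesoderm share (0.493%) was 0.562%, 0.274%, 0.0624%, and 0.252%, and 0.252% without matrix genes. The endothelial share (0.192%) was 0.219%, 0.111%, 0.0437%, and 0.130%. The blood share (0.869%) was 1.61% per kb, 0.382% over 10 genes, 0.532% without the 3 highest, 0.563% without globins, and 0.637% without Hbb-y. The log2 ratio of mesoderm to blood was -0.19 without globins (p = 0.09375, exact permutation test). The log2 ratio of Gata4 to Gata6 was 0.53 without division by length and 0.26 per kb of single-copy words, with p = 0.03125 in each (exact permutation test). The log2 ratio of Hba-x to the adult genes was 3.14 per kb of single-copy words in place of 7.52 (p = 0.03125, exact permutation test). With 10 defining genes, r was 0.38 for visceral endoderm with endothelium, -0.15 for visceral endoderm with mesoderm, and -0.21 for blood with endothelium. The causes were not tested.

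Genes with a CV of 30% or more numbered 4822 at a mean of 1 CPM or more, 33 at 100 CPM or more, and 10285 with no filter. A CV of 20% or more was found in 3296 and of 50% or more in 173. The median CV was 10.9% at 100 CPM or more and 36.9% with no filter. Per kb, 187 genes held 50% of the total.

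With each library left out in turn, 5 libraries cannot give a p below 0.0625, so every ratio lost its call by construction. The log2 ratios were then 3.47 to 3.53 for visceral endoderm over mesoderm, 2.63 to 2.79 over blood, and 4.85 to 4.87 over endothelium. They were -0.87 to -0.69 for mesoderm over blood, 1.34 to 1.38 for mesoderm over endothelium, and 2.05 to 2.22 for blood over endothelium. For genes they were -3.66 to -3.17 for Hbb-bh1 over Hbb-y, -1.14 to -1.11 for Hbb-bh1 over Hba-x, 7.33 to 7.63 for Hba-x over the adult genes, 1.08 to 1.28 for Apob over Apoa1, 0.12 to 0.28 for Gata4 over Gata6, 1.21 to 1.32 for Kdr over Flt1, and 4.21 to 4.53 for Hand1 over Hand2. Ratios of classes and genes are taken within each library. No paired analysis was possible because no groups of samples were compared whose replicate numbers could be matched.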
